A study of Danio rerio with 21 samples.

Results

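The genes described here code for the vacuolar ATPase (V-ATPase) and for the enzymes and membrane proteins of the lysosome. They were taken by gene symbol from the 3 deposited tables of sorted zebrafish cells: every symbol that starts as those of V-ATPase subunits (atp6v, atp6ap), cathepsins (cts), or a set of other lysosomal hydrolases, saposins and lysosomal membrane proteins. The rule found 48 of the 3064 genes in the 3 tables together. Of these, 17 were listed in 2 tables, 29 only for haemogenic against aortic roof endothelium and 2 only for the runx1 morpholino in haemogenic endothelium. Each table lists only genes that the authors had called different, so a lysosomal gene that is not listed has no value here, and the counts below are counts among listed genes.

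RNA-seq was run on cells sorted from embryos of 28 to 30 hours post fertilisation (hpf) that carried both TgBAC(runx1P2:Citrine) and Tg(kdrl:mCherry), in which Citrine follows the P2 promoter of runx1 and mCherry follows the endothelial gene kdrl. Non-injected embryos (Wt) gave Citrine-high double-positive cells (DP-R1hi), which the authors take as haemogenic endothelium (HE). They also gave Citrine-low double-positive cells (DP-R1lo), which the authors take as aortic roof endothelium (ARE) with the sprouting inter-somitic vessels. HE and ARE are used below as names of these gates. Cells with neither reporter (DN), which are non-endothelial tissue, were sorted too. Embryos injected with a runx1 morpholino (MO), an antisense oligonucleotide that lowers Runx1, gave DP-R1hi and DN cells from the same split batches. Each of these 5 groups had 3 libraries, 15 of the 21 in the series, all groups carried both transgenes, and each library came from at least 3000 cells sorted from dissociated whole embryos. Citrine protein outlasts its mRNA, so the gates separate cells by reporter protein and not by runx1 mRNA, and values of runx1 itself were not analysed here.

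The V-ATPase is a proton pump of many subunits. Its cytosolic V1 sector splits ATP, its membrane V0 sector carries the protons, and accessory subunits help to assemble and place it. The acid it makes lets the hydrolases of the lysosome work: cathepsins and legumain cut proteins, glycosidases and sulfatases take sugars apart, and lipid hydrolases with saposins degrade lipids. Macrophages and the scavenger endothelium of veins, which take up material from tissue and blood, are known to be rich in lysosomes.

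Levels are in CPM, reads scaled to each library's effective size, and the HE and ARE libraries had sizes of 13.8 to 19.3 M reads, those of MO and Wt DP-R1hi 9.72 to 17.6 M reads. The Wt DP-R1hi libraries stand in both comparisons, with the same reads scaled anew. Differences are given as log2(CPM + 1), the first group minus the second, ± standard error (SE), and a gene passed at a limma adjusted p under 0.05. A rescaling of the libraries to the median ratio of the listed genes moved the log2 differences by a median of 0.81 in the first comparison and -0.76 in the second. The direction of a gene with a small difference thus depends on the scale. The listed genes are those called different, 59.8% of them lower in HE than in ARE and 62.3% higher in MO than in Wt. Centring on them can therefore remove real differences, and it cannot tell which scale is right.

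Setting DP-R1hi against DP-R1lo asked what sets the HE gate apart from the ARE gate. The ARE gate also held RNA of macrophage and scavenger endothelium markers, and the HE gate RNA of leukocyte markers, all given below. The table listed 46 of the lysosome and V-ATPase genes, and 45 of them were lower in HE as deposited, against 1 that was higher. All 46 passed, in a table of called genes where 94.5% of genes passed: 56.5% of its 2732 genes passed as lower and 38.0% as higher. The median difference was -1.46 over these genes and -1.0 over all listed genes. After rescaling 41 of the 46 were still lower in sign, with a median of -0.68 beside -0.21 for all listed genes, but 22 passed as lower, where 30.0% of all listed genes did, and atp6v0a1a, atp6v0b, atp6v0d1 and ppt1 turned to 0.30, 0.05, 0.14 and 0.19. In each HE library the 46 genes together made up 3854, 3521 and 3945 CPM, and in each ARE library 11358, 12889 and 12610 CPM. Every HE library lay below every ARE library for each of the 45 genes, and 98.1% of all listed genes had groups that did not overlap.

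**Figure D1:**
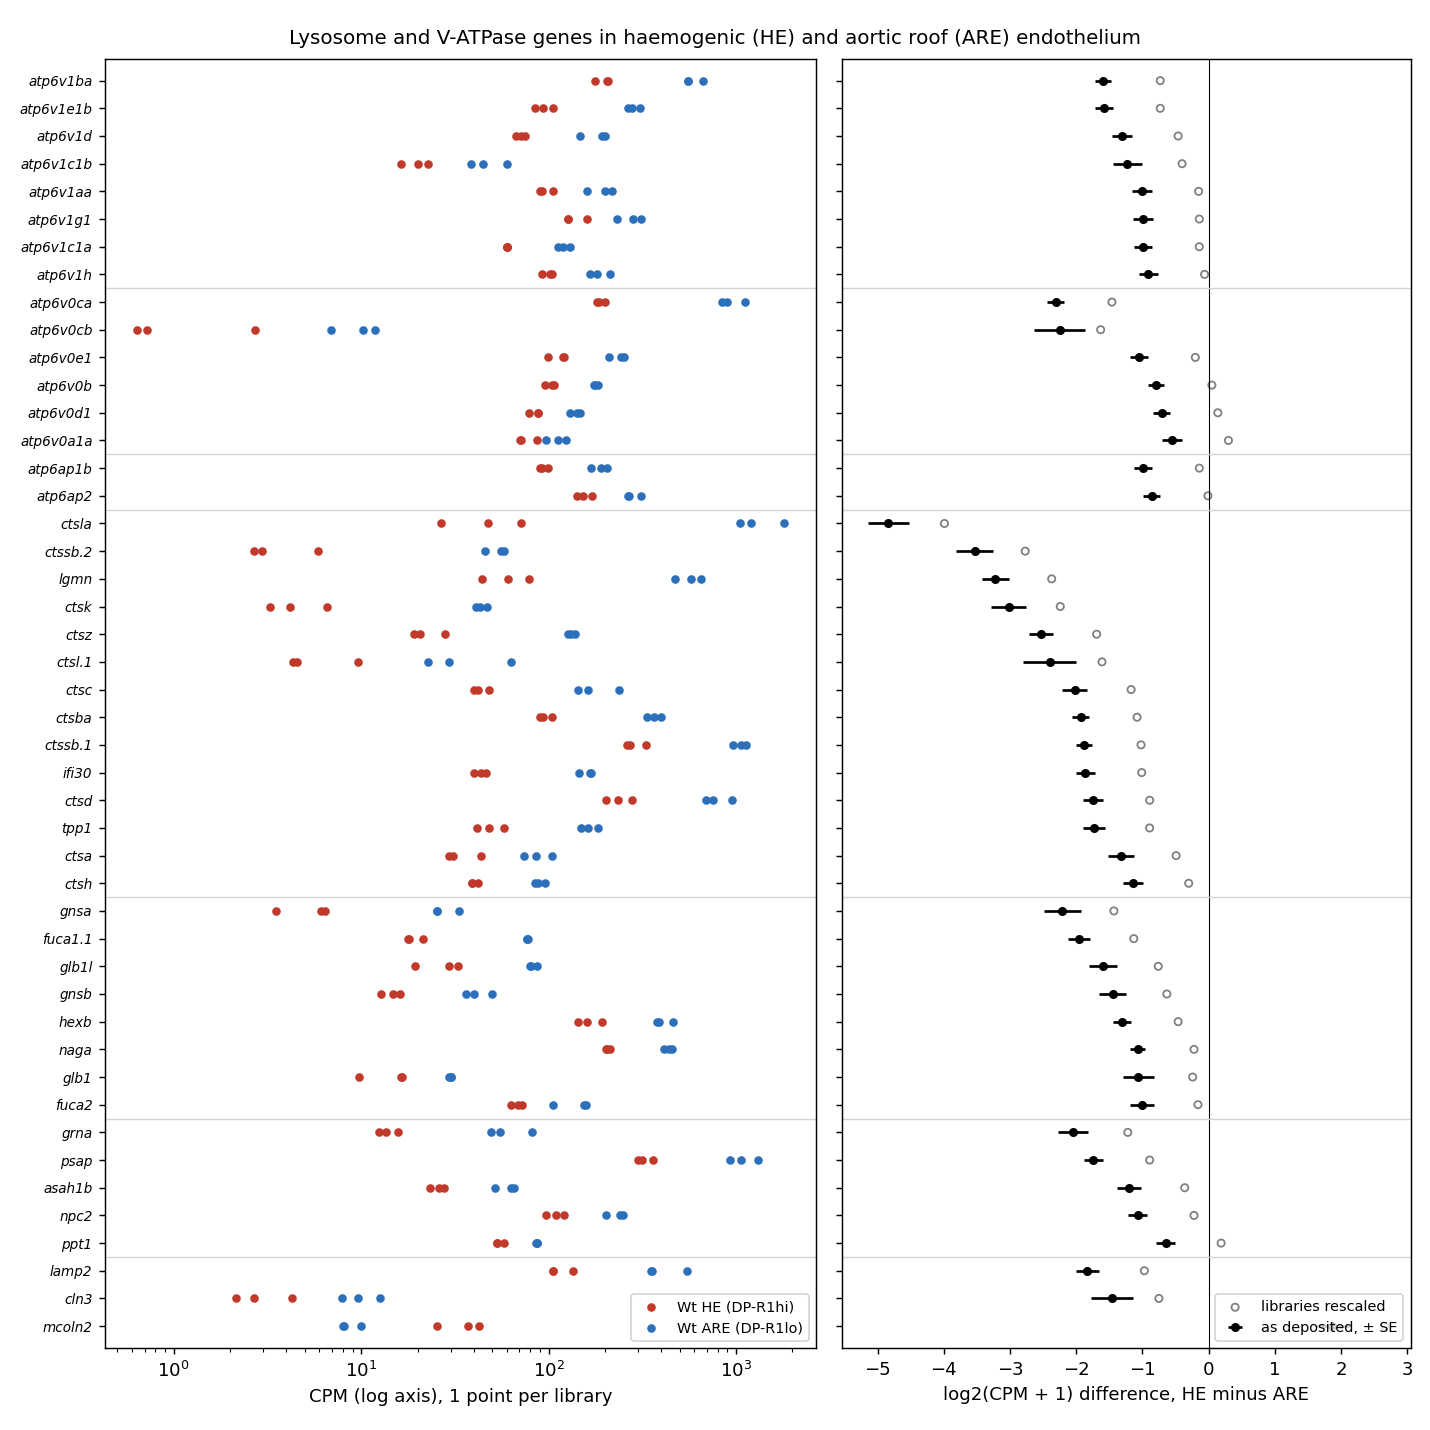
CPM of the 46 listed lysosome and V-ATPase genes in 3 HE and 3 ARE libraries (left, log axis, 1 point per library) and the log2(CPM + 1) difference HE minus ARE with its SE (right, filled), grouped by role from the V1 sector at the top to membrane proteins at the bottom. All but mcoln2 lie left of 0 as deposited, while in the rescaled libraries (open circles) atp6v0a1a, atp6v0b, atp6v0d1 and ppt1 lie right of it.

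Cathepsins and other lysosomal proteases showed the largest differences of the 7 roles, with 14 of 14 lower, beside 59.8% of all listed genes. The median of the proteases was -1.97, with a range from -4.84 to -1.14. After rescaling 14 stayed lower and 12 of them passed, where 30.0% of all listed genes passed as lower. This role also counts ifi30, which is not a protease gene. ctsla, a cathepsin L gene, had 47.5, 26.6 and 71.5 CPM in HE and 1196, 1051 and 1796 CPM in ARE. The mean was 27.8-fold higher in ARE, a difference of -4.84 ± 0.31 (adjusted p = 3.72e-06). ctssb.2, which RefSeq now calls ctss2.2 and which codes for a cathepsin S, had 5.87, 2.97 and 2.69 CPM in HE and 55.8, 57.6 and 46.0 CPM in ARE. Its difference was -3.53 ± 0.28 (adjusted p = 1.24e-05). lgmn, the gene of legumain, the protease that processes cathepsins and cuts after asparagine, had 60.8, 44.1 and 78.9 CPM in HE and 475, 575 and 654 CPM in ARE. Its difference was -3.22 ± 0.20 (adjusted p = 3.53e-06), and the lowest ARE library was far above the highest HE library. ctsk, the cathepsin K gene, best known from osteoclasts, had 4.20, 3.26 and 6.58 CPM in HE and 41.1, 46.9 and 43.1 CPM in ARE, a difference of -3.02 ± 0.26 (adjusted p = 2.01e-05). The other 10, among them the aspartic protease gene ctsd at -1.74 ± 0.15, the cathepsin B gene ctsba at -1.93 ± 0.13 and tpp1, a tripeptidyl peptidase gene, at -1.73 ± 0.16, had differences between -2.53 and -1.14. ctsk, ctssb.1 and ctssb.2 are neighbours in the RefSeq annotation of assembly GRCz12tu and are related in sequence, so the division of reads between them is uncertain.

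The V-ATPase genes had smaller differences. All 16 listed subunit genes passed as lower as deposited, where 56.5% of all listed genes did. Their median of -1.0 was that of all listed genes, and the 8 genes of the V1 sector lay between -1.59 and -0.91. After rescaling 13 of 16 were lower in sign, with a median of -0.15 beside -0.21 for all listed genes. As lower, 4 of the 16 then passed, where 30.0% of all listed genes did. atp6v1ba, a B subunit gene of the V1 sector, had 206, 176 and 207 CPM in HE and 555, 665 and 557 CPM in ARE, a difference of -1.59 ± 0.12 (adjusted p = 1.10e-05). atp6v1e1b, an E subunit gene, had 106, 85.2 and 93.1 CPM in HE and 278, 308 and 267 CPM in ARE, a difference of -1.58 ± 0.13. These were the V1 genes that also passed after rescaling, at -0.73 each. atp6v1d had 71.5, 74.8 and 66.9 CPM in HE and 147, 192 and 199 CPM in ARE, and atp6v1c1b had 20.2, 16.3 and 22.7 CPM in HE and 38.7, 60.4 and 44.8 CPM in ARE. In both, the groups did not overlap, as was so for 98.1% of all listed genes.

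Among the 6 V0 genes of the set, atp6v0ca and atp6v0cb had the largest differences. atp6v0ca, which codes for the proteolipid c subunit that forms the proton-carrying ring, had 201, 186 and 181 CPM in HE and 837, 1112 and 900 CPM in ARE. Its difference of -2.31 ± 0.13 (adjusted p = 1.53e-06) remained -1.46 after rescaling. Its paralog atp6v0cb was scarce, with 2.72, 0.641 and 0.725 CPM in HE and 6.91, 10.17 and 11.8 CPM in ARE, and differed by -2.25 ± 0.39 (adjusted p = 0.00143). The lowest HE library held 11 reads of it. atp6v0e1 had 119, 99.5 and 121 CPM in HE and 252, 245 and 211 CPM in ARE, and atp6v0b had 107, 96.3 and 104 CPM in HE and 183, 178 and 174 CPM in ARE. The smallest difference was that of atp6v0a1a, an a subunit gene, at -0.55 ± 0.15 (adjusted p = 0.0243). It was no longer past the threshold without HE library 1 (0.104) or 2 (0.111) or ARE library 2 (0.0643) or 3 (0.0805). Of the accessory genes, atp6ap1b had 99.5, 89.8 and 92.6 CPM in HE and 169, 206 and 190 CPM in ARE. atp6ap2, the prorenin receptor gene, had 171, 141 and 152 CPM in HE and 269, 313 and 264 CPM in ARE. Both differed by less than 1 on the log2 scale, at -0.99 ± 0.13 and -0.86 ± 0.13.

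The 8 glycosidase and sulfatase genes lay between -2.21 and -1.01 and passed as lower, where 56.5% of all listed genes did. After rescaling all 8 kept that sign and 3 passed, where 30.0% of all listed genes passed as lower. gnsa, a glucosamine-6-sulfatase gene of heparan sulfate breakdown, had 3.52, 6.12 and 6.42 CPM in HE and 25.3, 25.5 and 33.1 CPM in ARE, a difference of -2.21 ± 0.28 (adjusted p = 0.000174). Its paralog gnsb had 14.8, 16.2 and 12.8 CPM in HE and 40.1, 49.8 and 36.1 CPM in ARE. fuca1.1, an alpha-fucosidase gene with a neighbouring copy, fuca1.2, had 21.4, 18.1 and 17.7 CPM in HE and 77.2, 76.3 and 77.5 CPM in ARE, a difference of -1.96 ± 0.17. glb1l, related to beta-galactosidase, had 19.3, 32.8 and 29.6 CPM in HE and 80.9, 87.0 and 80.0 CPM in ARE. In all 4 the HE libraries lay below every ARE library, and 98.1% of all listed genes had groups that did not overlap. The others, naga, hexb, glb1 and fuca2, lay between -1.31 and -1.01.

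The 5 genes placed under lipid breakdown, saposins and sterol transport all passed as lower as deposited, where 56.5% of all listed genes did. After rescaling 2 of the 5 passed as lower, where 30.0% of all listed genes did, and ppt1 turned to the other sign. grna, a progranulin gene that was placed here though it codes for no lipid hydrolase, had 15.8, 13.6 and 12.5 CPM in HE. In ARE it had 49.4, 81.3 and 55.3 CPM, a difference of -2.05 ± 0.23 (adjusted p = 7.91e-05). psap, the precursor of the saposins that present sphingolipids to their hydrolases, had 299, 317 and 361 CPM in HE and 927, 1306 and 1064 CPM in ARE, a difference of -1.74 ± 0.14 (adjusted p = 1.20e-05). asah1b, an acid ceramidase gene, had 27.6, 23.4 and 25.9 CPM in HE and 51.6, 63.2 and 65.8 CPM in ARE. npc2, listed by RefSeq as npc2.1 beside a second copy and coding for a cholesterol carrier of the lysosome lumen, had 121, 97.0 and 109 CPM in HE and 249, 203 and 240 CPM in ARE. The groups did not overlap for either gene, as was so for 98.1% of all listed genes.

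The lysosomal membrane held the one exception. mcoln2, a mucolipin cation channel gene, had 37.4, 25.5 and 42.4 CPM in HE and 8.14, 9.93 and 8.02 CPM in ARE. It was the only listed gene of the set that was higher in HE as deposited, by 1.87 ± 0.25 (adjusted p = 0.000267), and rescaling raised the difference to 2.66. lamp2, a structural glycoprotein of the lysosome wall, had 106, 105 and 135 CPM in HE and 355, 352 and 547 CPM in ARE, a difference of -1.83 ± 0.18 (adjusted p = 4.34e-05). cln3, mutated in a childhood lysosomal storage disease in humans, had 4.26, 2.16 and 2.69 CPM in HE and 7.92, 12.6 and 9.62 CPM in ARE, a difference of -1.46 ± 0.32.

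The comparison of injected with non-injected DP-R1hi cells asked which genes depend on Runx1 in the HE gate. It listed 19 genes of the set, 17 higher and 2 lower in MO as deposited, with a median of 0.99 beside 1.02 for all 676 listed genes. Of these, 10 passed as higher and 1 as lower, 52.6% and 5.26% of the 19, where 26.3% and 15.1% of all listed genes passed as higher and lower. With replicate numbers as a block, 12 passed as higher and 1 as lower, beside 35.8% and 19.8% of all listed genes. After rescaling 15 of the 17 were still higher in sign, atp6ap2 and atp6v1c1a turned to -0.11 and -0.01, and 3 passed as higher and 2 as lower, beside 8.28% and 35.1% of all listed genes. Without Wt library 1 or 2, 5 or 6 passed as higher and 0 as lower, and without MO library 3, 15 passed as higher. No share over all listed genes is given for these fits, so their counts do not set the genes apart. The 19 genes together had 3995, 4701 and 3401 CPM in the MO libraries and 1808, 1677 and 1921 CPM in the Wt libraries. MO library 3 was the lowest of the 3 MO libraries for 13 of the 19 genes, and MO library 2 the highest for 13.

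**Figure D2:**
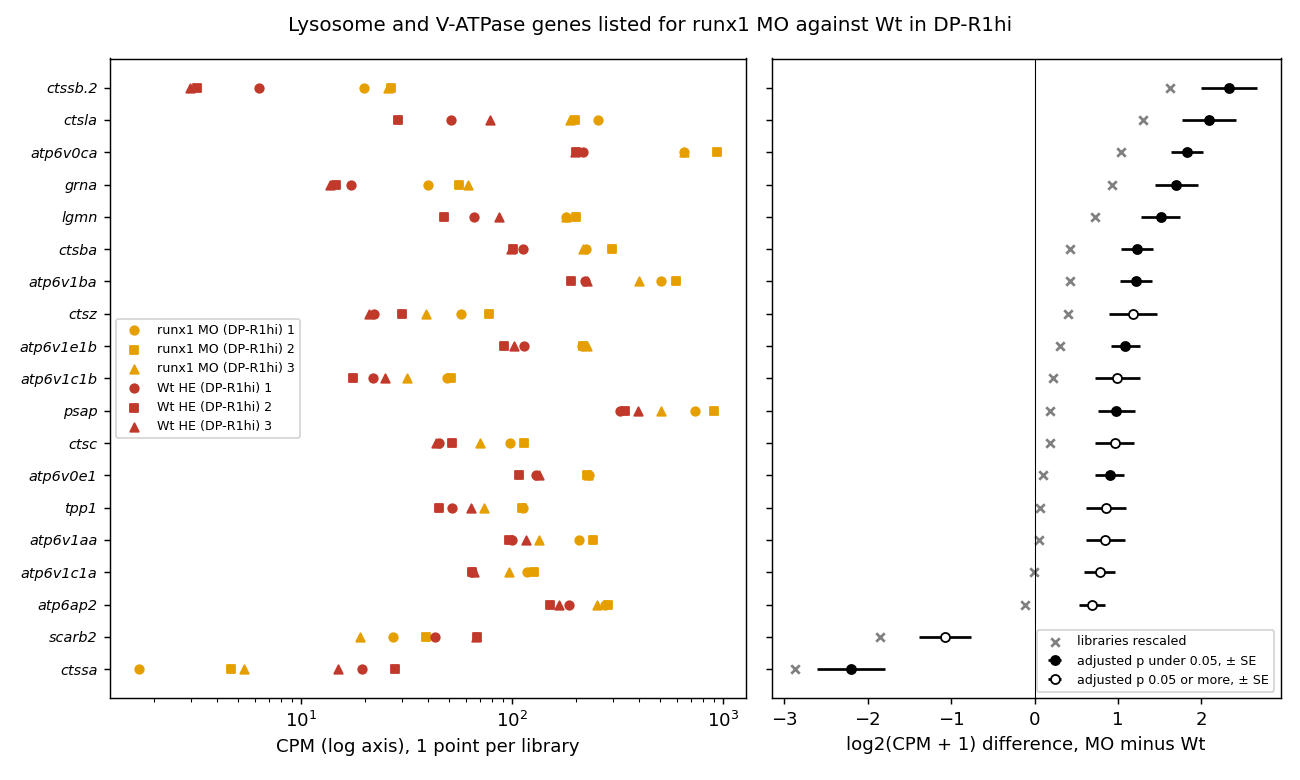
CPM of the 19 listed lysosome and V-ATPase genes in 3 runx1 MO and 3 Wt DP-R1hi libraries (left, log axis, symbol by replicate number) and the log2(CPM + 1) difference MO minus Wt with its SE (right, filled where the adjusted p is under 0.05). As deposited 17 genes lie right of 0; after rescaling (crosses) atp6ap2 and atp6v1c1a do not, and ctssa and scarb2 lie left on both scales.

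The 2 largest increases were in the protease genes ctssb.2 and ctsla, and those of atp6v0ca and grna, given below, came next. ctssb.2 had 19.9, 26.6 and 25.6 CPM in MO and 6.33, 3.2 and 2.95 CPM in Wt, a rise of 2.33 ± 0.34 (adjusted p = 0.00710). ctsla had 255, 198 and 187 CPM in MO and 51.2, 28.6 and 78.4 CPM in Wt, a rise of 2.09 ± 0.32 (adjusted p = 0.00785, 0.0595 without Wt library 1). These 2 genes also passed after rescaling, at 1.62 and 1.3. lgmn had 179, 201 and 180 CPM in MO and 65.6, 47.5 and 86.5 CPM in Wt, a rise of 1.51 ± 0.23 (adjusted p = 0.00762, 0.0582 without Wt library 1). ctsba had 223, 297 and 217 CPM in MO and 112, 101 and 98.3 CPM in Wt, a rise of 1.23 ± 0.19 (adjusted p = 0.00762). Every MO library was above every Wt library for these genes, and 93.2% of all listed genes had groups that did not overlap.

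Of the remaining proteases, 3 missed the threshold. ctsz had 57.1, 77.5 and 39.1 CPM in MO and 22.1, 30.1 and 21.0 CPM in Wt, a difference of 1.18 ± 0.29 (limma adjusted p = 0.0731, 0.0251 with the replicate block). ctsc, the gene of cathepsin C, which activates serine proteases of leukocytes, had 97.6, 113 and 70.4 CPM in MO and 45.0, 51.6 and 43.6 CPM in Wt, a difference of 0.96 ± 0.23 (limma adjusted p = 0.0582, 0.0337 with the block). tpp1 had 112, 111 and 73.4 CPM in MO and 51.9, 44.9 and 63.6 CPM in Wt, a difference of 0.86 ± 0.24 (limma adjusted p = 0.116). In each, MO library 3 was the lowest of the MO libraries, yet above the highest Wt library. The groups did not overlap for 93.2% of all listed genes.

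One cathepsin gene moved the other way. ctssa, now named ctss1 and a paralog of ctssb.2, had 1.70, 4.62 and 5.35 CPM in MO and 19.4, 27.8 and 14.9 CPM in Wt, and fell by 2.20 ± 0.41 on the log2 scale (adjusted p = 0.0210). It lost the call without Wt library 1 (0.116) or 2 (0.132), and the lowest MO library held 21 reads. It was not listed for HE against ARE. scarb2, a receptor that carries glucocerebrosidase to the lysosome and that RefSeq calls scarb2a, had 27.3, 39.1 and 18.9 CPM in MO and 43.0, 68.3 and 67.3 CPM in Wt, a difference of -1.07 ± 0.31 (limma adjusted p = 0.140). It did not pass with the replicate block (limma adjusted p = 0.069) or in any fit that left 1 library out. It passed after rescaling, at -1.85 (limma adjusted p = 0.0110), where 35.1% of all listed genes passed as lower. It also passed with p-values adjusted over the listed genes only, where 661 of all 676 had an unadjusted limma p under 0.05. Both genes had lower values in every MO library than in any Wt library, and 93.2% of all listed genes had groups that did not overlap.

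Among the V-ATPase genes, 8 were listed, all higher in MO as deposited, and 4 passed, where 26.3% of all listed genes passed as higher. Their median was 0.94 beside 1.02 over all listed genes, and 0.16 beside 0.28 after rescaling. On the rescaled libraries 6 kept that sign and 1 passed, where 8.28% of all listed genes passed as higher. That gene was atp6v0ca, with 649, 934 and 649 CPM in MO and 216, 200 and 199 CPM in Wt, a rise of 1.83 ± 0.19 (adjusted p = 0.000952) that was 1.04 after rescaling. It passed whichever library was left out. atp6v1ba had 506, 599 and 400 CPM in MO and 222, 190 and 227 CPM in Wt, a rise of 1.22 ± 0.19 (adjusted p = 0.00881), and lost the call without Wt library 1 (0.0609) or 2 (0.0574). atp6v1e1b had 214, 217 and 226 CPM in MO and 114, 91.7 and 102 CPM in Wt, a rise of 1.09 ± 0.17 (adjusted p = 0.00846, 0.0565 without Wt library 2). atp6v0e1 had 231, 225 and 229 CPM in MO and 129, 107 and 133 CPM in Wt, a rise of 0.90 ± 0.17 (adjusted p = 0.0227), which passed in 2 of the 6 fits that left 1 library out.

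The other 4 V-ATPase genes did not pass. atp6v1aa, the gene of a catalytic A subunit, had 206, 241 and 133 CPM in MO and 99.7, 96.5 and 116 CPM in Wt (limma adjusted p = 0.116). atp6v1c1a had 117, 126 and 95.9 CPM in MO and 64.7, 64.4 and 65.9 CPM in Wt, and atp6v1c1b had 49.1, 51.3 and 31.7 CPM in MO and 21.8, 17.5 and 24.9 CPM in Wt. atp6ap2 had 274, 283 and 253 CPM in MO and 185, 151 and 167 CPM in Wt. In all 4 the MO libraries lay above the Wt libraries as deposited, and 93.2% of all listed genes had groups that did not overlap.

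Both listed genes of the lipid and saposin role, in which the progranulin gene grna was placed, passed as higher, where 26.3% of all listed genes did. After rescaling 0 of the 2 passed, with grna at 0.93 and psap at 0.18, where 8.28% of all listed genes passed as higher. grna had 39.7, 55.6 and 61.3 CPM in MO and 17.1, 14.6 and 13.7 CPM in Wt, a rise of 1.70 ± 0.26 (adjusted p = 0.00762) that held whichever library was left out. psap had 735, 903 and 507 CPM in MO and 323, 341 and 396 CPM in Wt, a rise of 0.98 ± 0.22. It lay at the threshold (adjusted p = 0.049961, 0.013 with the replicate block), and it passed in 1 of the 6 fits that left 1 library out.

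The ratio of one gene to another within a library does not depend on how the library was scaled. Read only as a change between groups, since gene length enters its size, the ratio of atp6v0ca to the sum of the other 7 V-ATPase genes listed in both tables was 0.259, 0.278 and 0.238 in Wt HE. It was 0.406, 0.536 and 0.474 in MO DP-R1hi cells and 0.497, 0.578 and 0.541 in ARE. The MO libraries lay above all Wt HE libraries and partly within the ARE range. The ratio of ctsla to ctsba was 0.458, 0.285 and 0.798 in Wt HE, 1.14, 0.665 and 0.859 in MO and 3.28, 2.64 and 5.37 in ARE. Here MO overlapped Wt HE, and ARE lay above both. These ratios were chosen after the values were seen and were not tested.

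**Figure D3:**
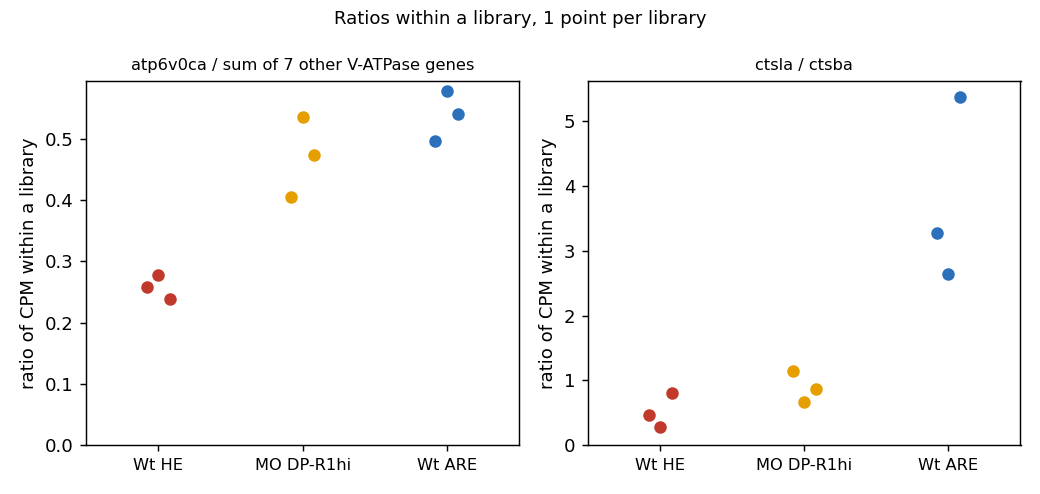
Ratio of CPM within a library, 1 point per library, for atp6v0ca over the sum of 7 other V-ATPase genes (left) and for ctsla over ctsba (right), in Wt HE, runx1 MO DP-R1hi and Wt ARE. The MO libraries lie at 0.406 to 0.536 on the left, above Wt HE at 0.238 to 0.278, and at 0.665 to 1.14 on the right, where they overlap Wt HE.

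In DN cells the table of MO against Wt listed 176 genes and 0 of the set. No lysosome or V-ATPase gene therefore has a value in both MO tables, and the effects in the 2 gates could not be tested against each other. Of all 176 genes, 19.3% passed as higher and 3.41% as lower. There 0 of 4 listed macrophage and leukocyte markers passed (limma), where 4 of the 4 and 176 of all 176 genes had an unadjusted p under 0.05. All 4 were lower in MO, with a median of -1.03, where 32.4% of all listed genes were lower. After rescaling 4 were lower, beside 39.8% of all listed genes. The macrophage gene mfap4 and the neutrophil gene mpx were at -1.19 ± 0.29 and -0.90 ± 0.30. In DP-R1hi they were at 3.38 ± 0.26 and -1.42 ± 0.25. Of 10 listed erythroid genes, 4 passed as lower.

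Of the genes that share the 7 roles but not the symbols of the rule, 14 were listed for HE against ARE. Of these 14, 13 passed as lower, where 56.5% of all listed genes did, and slc17a5 did not pass, at -0.70 ± 0.24. After rescaling 12 of 14 were lower in sign, beside 54.8% of all listed genes. In MO 4 were listed and 2 passed as higher, tcirg1b and rnaseka, where 26.3% of all listed genes passed as higher. The call of rnaseka, at 0.96 ± 0.21, was lost without any 1 library (limma adjusted p of 0.0643 to 0.195). Among transcription factors and sorting genes of the lysosome, 11 were listed for HE against ARE. Their median was -0.93 beside -1.0 for all listed genes. Of the 11, 9 passed as lower and 1 as higher, where 56.5% and 38.0% of all listed genes did. After rescaling 6 of 11 were lower in sign, beside 54.8% of all listed genes. tfec, of the MiT family of factors that in mammals switch on lysosomal genes, had 2.04, 5.71 and 4.76 CPM in HE and 70.7, 78.5 and 158 CPM in ARE, a difference of -4.30 ± 0.37 (adjusted p = 1.78e-05). In MO it had 29.1, 37.6 and 26.8 CPM against 2.20, 6.15 and 5.23 CPM in Wt, a rise of 2.61 ± 0.37 (adjusted p = 0.00538), and it passed on both scales in both comparisons. tfe3a, of the same family, was at -0.70 ± 0.22 in HE (adjusted p = 0.0399) and at 0.14 after rescaling, and its adjusted p reached 0.182 when 1 library was left out. In MO 4 genes of this list were listed, of which tfec and rab7b passed as higher and bloc1s1 did not pass. The gene hps5, for a part of a lysosome-related organelle complex, passed as lower at -1.47 ± 0.32 (limma adjusted p = 0.0453). Of all listed genes, 26.3% passed as higher and 15.1% as lower. The calls of rab7b and hps5 were each lost when certain single libraries were left out, with adjusted p-values of up to 0.16 and 0.243. sort1a, a sorting receptor for hydrolases, was at -2.61 ± 0.36 in HE, and rab7b, listed under an older name, at -2.41 ± 0.29. tcirg1b, a V0 a subunit gene whose symbol falls outside the rule, had 22.5, 29.3 and 22.6 CPM in HE and 123, 160 and 120 CPM in ARE, a difference of -2.39 ± 0.18. In MO it had 100, 119 and 53.9 CPM against 24.3, 31.6 and 24.8 CPM in Wt, a rise of 1.66 ± 0.30 (adjusted p = 0.0177) whose adjusted p reached 0.12 when 1 library was left out. Of the 10 nutrient-sensing and autophagy genes listed for HE against ARE, 9 passed as lower, where 56.5% of all listed genes did. The largest differences were those of sesn3 at -2.14 ± 0.28 and the autophagy receptor gene sqstm1 at -1.70 ± 0.16. After rescaling 8 of 10 were lower in sign, beside 54.8% of all listed genes. In MO 5 were listed, and sesn3 and sqstm1 passed as higher, at 1.82 ± 0.30 and 1.27 ± 0.26, where 26.3% of all listed genes did. The limma adjusted p-values of sesn3 and sqstm1 reached 0.071 and 0.187 when 1 library was left out. sesn3, a stress-induced gene, also rose in DN cells, by 2.82 ± 0.24.

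Markers of other cell types, some of them rich in lysosomes, were also listed in these comparisons. In sorted bulk samples, fewer cells of a type and less RNA per cell cannot be told apart. Of 13 listed macrophage and leukocyte markers, 12 passed as lower in HE and 1, grap2b, as higher at 0.68 ± 0.11. Of all listed genes, 56.5% passed as lower and 38.0% as higher. The median of the markers was -3.22, and 11 were lower after rescaling. mpeg1.1, a macrophage gene, had 14, 17.1 and 22 CPM in HE and 290, 478 and 305 CPM in ARE, and csf1ra, the receptor of a macrophage growth factor, had 1.05, 2.04 and 2.64 CPM in HE and 27.9, 36.5 and 21.3 CPM in ARE. The summed level of the 13 ran from 692 to 742 CPM in HE and from 1959 to 2692 CPM in ARE, and none of the markers named here was at 0. Of the HE sum, grap2b made up 383, 416 and 371 CPM. The neutrophil gene mpx and the leukocyte gene coro1a were not listed here, so the sum leaves them out and their ARE level is not known. On the scale of the MO comparison, the same Wt DP-R1hi libraries held 4376, 5073 and 3466 CPM of mpx. They held 2682, 2889 and 2477 CPM of coro1a. Of 9 listed markers of scavenger endothelium, 8 passed as lower and 1, lyve1a, as higher at 1.85 ± 0.25. The gene stab2, of a scavenger receptor, had 31.2, 26.6 and 49.6 CPM in HE and 595, 542 and 1131 CPM in ARE. Their summed level ran from 113 to 194 CPM in HE and from 1803 to 3508 CPM in ARE. Of the ionocyte list, only ca2 was listed, at -3.77 ± 0.35. Of the yolk, gut and pronephros list 3 of 3 listed genes passed as lower. These include dab2, at -4.37 ± 0.26, which is also counted among the scavenger endothelium markers above. Of the hatching gland list 2 passed as higher and 2 as lower. Of the notochord list 1 passed each way of 3, and of the primitive erythroid list 3 of 3 as higher.

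In the MO comparison, 10 of 12 listed macrophage and leukocyte markers passed as higher and 1, the neutrophil gene mpx, as lower. Of all listed genes, 26.3% passed as higher and 15.1% as lower. The leukocyte gene coro1a was lower too, at -0.84 ± 0.20, but did not pass (limma adjusted p = 0.0597). The median of the markers was 2.49, and 10 were higher after rescaling. mpeg1.1 had 109, 168 and 89.6 CPM in MO and 15.1, 18.4 and 24.1 CPM in Wt, and mfap4 had 460, 459 and 415 CPM in MO and 61.7, 27.9 and 42.1 CPM in Wt. The summed level of the 12 ran from 3930 to 5748 CPM in MO and from 6207 to 8195 CPM in Wt, most of it from mpx and coro1a. No marker of scavenger endothelium or of yolk, gut and pronephros was listed, 1 of 2 listed genes passed as higher in each of the hatching gland and notochord lists, and ca2 did not pass. All 12 listed primitive erythroid genes passed as higher, and their sum ran from 126758 to 201732 CPM in MO and from 43568 to 60810 CPM in Wt. The part of these markers in the differences of the lysosome and V-ATPase genes was not tested.

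**Figure D4:**
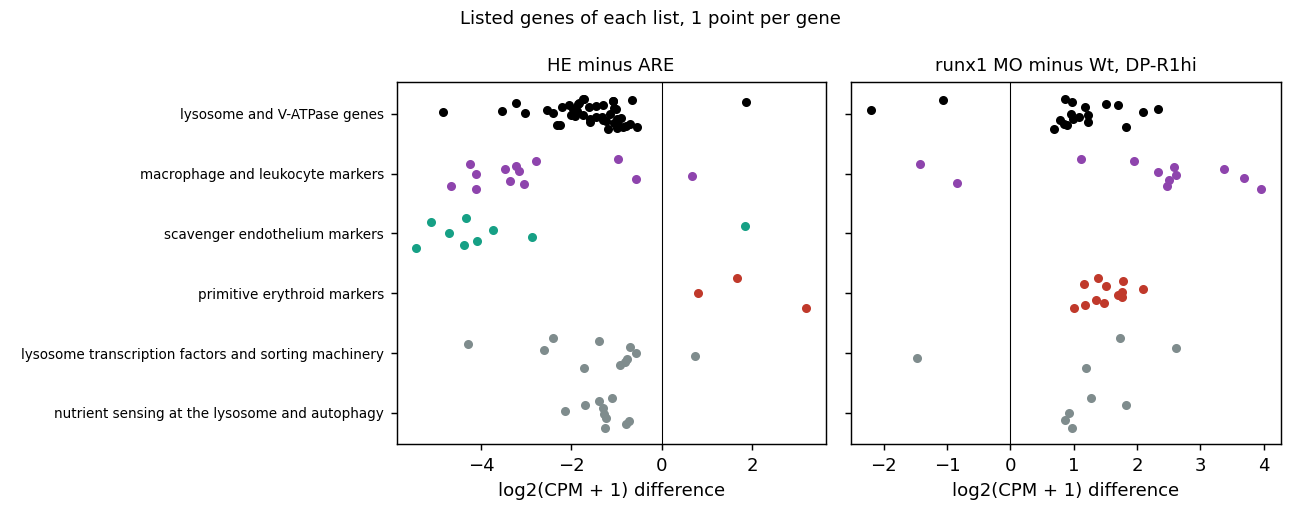
log2(CPM + 1) difference of each listed gene, 1 point per gene, for the lysosome and V-ATPase genes and 5 other lists, HE minus ARE on the left and runx1 MO minus Wt in DP-R1hi on the right, as deposited. Macrophage and leukocyte markers have medians of -3.22 and 2.49, and the lysosome and V-ATPase genes medians of -1.46 and 0.99. After rescaling, the medians of the lysosome and V-ATPase genes become -0.68 and 0.22.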

How the data were processed

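Per the labels and the methods, RNA from sorted cells (at least 3000 per library, pooled embryos of several clutches) with an integrity number above 8 went into SMARTer libraries from 2.2 ng. The authors used Trimmomatic 0.32 for trimming, STAR for alignment to Zv10, featureCounts for gene counts and edgeR for their tests. The deposited CPM values of the authors are gene counts divided by each library's effective size in M reads. The deposited log2 columns (the authors' fold change and mean CPM), the deposited score (a likelihood ratio) and the deposited p-value columns were not used, except to recover the number of genes tested, 10916 and 11479. Tables hold only genes called by the authors, so passing is not independent evidence.

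Each table was fitted whole with limma 3.58.1 in R 4.3.3 (mean trend, two-sided) on log2(CPM + 1), with Benjamini-Hochberg adjustment over the genes tested, and checked on simulated data. Each fit had 6 libraries and no filter. Values were whole multiples of 1 step, taken as 1 read, but no count test was run. Same-numbered MO and Wt DP-R1hi libraries deviated together (r = 0.128, 0.313 and 0.118), but MO library 1 and Wt library 3 also had r = 0.118. Batches of embryos were split before injection. The pairing is taken from these values, since the labels do not tie numbers to batches. Replicates were separate samples whose origin the labels do not give, and the p-values cover their spread alone. Genes named were up to 4 of each role with the largest difference, every gene of the MO table, every gene that failed or lost its call when 1 library was left out, and up to 4 of each other list. The set and the 16 lists were chosen with earlier results of these data known. Of the 48 symbols, 42 matched RefSeq (GRCz12tu) directly and 6 through an older name. Alternatives were another pseudocount (0.5 or 5), a minimum of 5 CPM, rescaled libraries, adjustment over listed genes, no trend, each library left out and a replicate block.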

Additional observations from a re-analysis of the deposited data

How the results depend on the processing

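For HE against ARE, 45 genes passed as lower and 1 as higher under every alternative but 3 kinds: rescaling, no mean trend, and leaving out 1 of 4 libraries, where only atp6v0a1a was lost in the last 2. Rescaling left 22 passing as lower: 2 of the V1 sector, 2 of the V0 sector, 0 accessory genes, 12 proteases, 3 glycosidases and sulfatases, 2 lipid genes and 1 membrane gene. It turned atp6v0a1a to 0.30, atp6v0b to 0.05, atp6v0d1 to 0.14 and ppt1 to 0.19. Over all listed genes, rescaling took the calls from 1037 higher and 1544 lower to 1099 and 819 here, and from 178 and 102 to 56 and 237 for MO in DP-R1hi and from 34 and 6 to 11 and 33 in DN. The mean summed level became 4950 CPM in HE and 8936 CPM in ARE. The replicate block left 45 lower and 1 higher. Same-numbered HE and ARE libraries had r of 0.094, 0.183 and 0.267, and the highest r of the other pairs was 0.058.

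For MO against Wt in DP-R1hi, rescaling left 3 passing as higher and 2 as lower: 0 of the V1 sector, 1 of the V0 sector, 2 proteases and 0 lipid genes higher, and 1 protease (ctssa) and 1 membrane gene (scarb2) lower. It turned atp6ap2 to -0.11 and atp6v1c1a to -0.01, and the summed level to 3069 CPM in MO and 2374 CPM in Wt. Adjustment over the listed genes gave 17 higher and 2 lower. Higher were 5 of the V1 sector, 2 of the V0 sector, 1 accessory gene, 7 proteases and 2 lipid genes. Lower were 1 protease and 1 membrane gene. Of all 676 listed genes, 661 had an unadjusted limma p under 0.05, so passing this adjustment does not set these genes apart. Without a mean trend 6 passed as higher, with 0 of the V1 sector, 1 of the V0 sector, 4 proteases and 1 lipid gene. Both pseudocounts and the CPM minimum left 1 lipid gene, psap being lost, and 9 passing as higher in all. Leaving out 1 library at a time gave 5 to 15 higher and 0 to 1 lower, with 0 to 4 of the V1 sector, 1 to 2 of the V0 sector, 2 to 7 proteases higher and 0 to 1 lower, and 1 to 2 lipid genes. The paired fit with the replicate block gave 12 higher and 1 lower, adding ctsz and ctsc. Except for rescaling, where the shift of all genes moves every value, and the adjustment over fewer genes, the cause was not tested. A library left out also leaves 1 group with 2 libraries. For the fits without a trend, with other pseudocounts, the CPM minimum or 1 library left out, no share over all listed genes is given. The counts of those fits therefore do not set these genes apart from all listed genes. Genes that the authors did not call have no values here, and low genes such as atp6v0cb and ctssa rest on few reads.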
